A study of Mus musculus with 6 samples.

Results

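The genes described here encode the machinery that writes and removes methylation of lysine 27 on histone H3 (H3K27) in tumor-associated macrophages (TAMs). They are 9 genes of Polycomb repressive complex 2 (PRC2), namely Ezh1, Ezh2, Eed, Suz12, Rbbp7, Jarid2, Aebp2, Mtf2 and Phf19, and the H3K27 demethylase gene Kdm6b. The 10 symbols were chosen by name and matched to Ensembl IDs, and all 10 were among the 55421 genes counted and the 14469 genes tested. TAMs were sorted as live CD45+CD11b+F4/80+Ly6G- cells from MC17-51 fibrosarcomas (M17 in the labels) of adult mice at day 15 after implantation. All mice carried the floxed Pdcd1 gene, which encodes PD-1. The 3 Pdcd1f/fLysMcre libraries came from mice that also carried Cre under the lysozyme promoter, which acts in myeloid cells in general, and the 3 Pdcd1f/f libraries came from mice without Cre. The labels call the libraries replicates without naming the mice behind each, so p-values measure the spread between these libraries. The question was whether Jarid2 was alone among PRC2 genes in its rise in Pdcd1f/fLysMcre TAMs.

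PRC2 places methyl groups on H3K27 and thereby marks repressed genes. Its catalytic subunit is EZH2 or the related EZH1, held by the scaffold SUZ12 together with EED, which binds the methylated mark, and the histone-binding proteins RBBP7 or RBBP4. Accessory proteins divide the complex into 2 forms. JARID2 and AEBP2 define the form called PRC2.2, which recognizes ubiquitylated histone H2A, and the Polycomb-like proteins MTF2, PHF19 and PHF1 belong to PRC2.1, which is directed to CpG-rich DNA. JARID2 belongs to the Jumonji family but lacks demethylase activity. KDM6B, a demethylase known to be induced in macrophages by inflammatory stimuli, removes the mark.

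Jarid2 rose in Pdcd1f/fLysMcre TAMs and was not alone, since Aebp2, its partner in PRC2.2, rose as well. Normalized counts, for which the raw counts of each library had been divided by its size factor, increased 1.37-fold for Jarid2 and 1.27-fold for Aebp2. By edgeR's quasi-likelihood test, with an adjusted p-value threshold of 0.05, these 2 of the 10 genes (20%) were higher and none was lower, whereas 5.43% of all tested genes were past the threshold, 2.42% as higher and 3.01% as lower. DESeq2 called the same 2 genes, beside 10.6% of all genes (4.93% as higher), and so did limma-trend. The remaining 8 genes were not past it, and 6 of those 8 had a positive log2 fold change. The median log2 fold change over the 10 genes was 0.17, against -0.0026 over all tested genes. Libraries of the genotypes did not overlap for 4 of the 10 genes, Jarid2, Aebp2, Ezh2 and Rbbp7, all higher in Pdcd1f/fLysMcre. Of all tested genes, 27.2% did not overlap, and 14.1% did so with the higher values in Pdcd1f/fLysMcre. When 1 library was left out, Aebp2 was past the threshold by edgeR in 2 of 6 fits, with log2 fold changes of 0.29 to 0.39 over the 6. In these fits 1 to 6 of the 10 genes were past it, beside 1.51% to 21.6% of all tested genes.

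**Figure D1:**
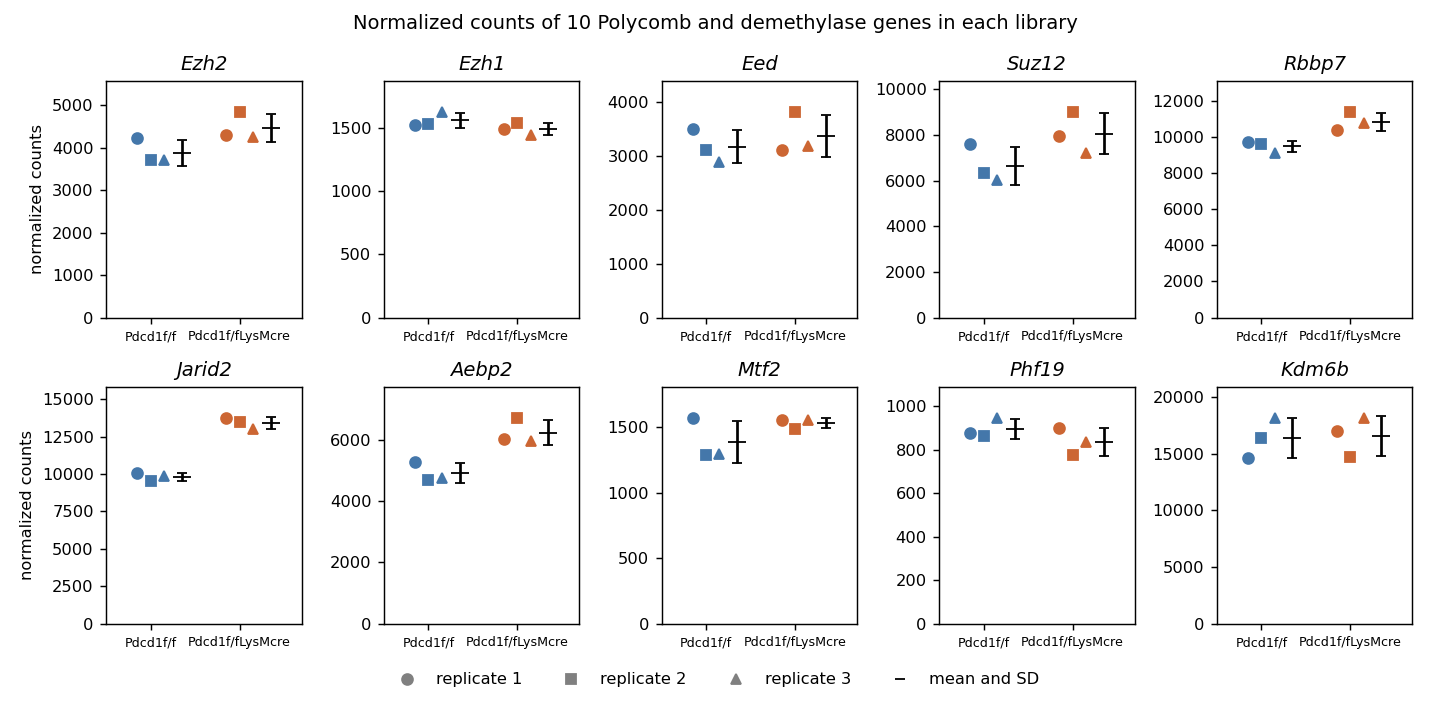
Normalized counts (vertical axes, starting at 0) of the 10 genes in each library, with the marker shape giving the replicate number and the black bar the mean and SD of 3 libraries. For Jarid2 the Pdcd1f/f libraries lie between 9530 and 10038 and the Pdcd1f/fLysMcre libraries between 12988 and 13744.

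Several properties of the libraries touch these values. Total counts were 41833823 to 51417209 per library. Departures of single libraries from their genotype mean tracked GC content (across 14454 genes, which are not independent replicates), with a Spearman rho of -0.58 in Pdcd1f/f replicate 1 and -0.49 in Pdcd1f/fLysMcre replicate 2, and of 0.12 to 0.51 in the other 4 libraries. The floxed gene Pdcd1 had 10, 12 and 15 raw counts in Pdcd1f/f and 7, 16 and 11 in Pdcd1f/fLysMcre libraries, too few to check the labels. Lyz2, which carries the Cre insertion, had 216864 ± 8638 normalized counts in Pdcd1f/f and 427 ± 33.4 in Pdcd1f/fLysMcre libraries (SD, n = 3 each). The presence of Cre, the near loss of Lyz2 transcript and the targeting of Pdcd1 separate the same libraries and cannot be told apart. Xist, expressed from the inactive X chromosome of females, was 17318 to 26511 in Pdcd1f/f and 8530 to 13137 in Pdcd1f/fLysMcre libraries, and the summed level of 4 Y-linked genes was 1545 to 1914 and 6267 to 7233, so the mix of sexes and the genotype cannot be told apart. Of 8 macrophage markers, 4 were lower, among them Adgre1, Csf1r and Mertk, in Pdcd1f/fLysMcre and none was higher, with summed levels of 244567 to 266331 and 218424 to 221334. Neutrophil markers summed to 4184 to 4496 in Pdcd1f/f and 3802 to 3936 in Pdcd1f/fLysMcre libraries and B cell markers to 169 to 209 and 120 to 149, both lower in the latter without overlap. Without Csf3r the neutrophil sums were 1700 to 2194 and 2132 to 2295, with overlap, and the other 3 tested markers of that list had log2 fold changes of 0.03 to 0.23. T cell markers summed to 622 to 697 and 549 to 663, and Ly6g had at most 3 raw counts. Dendritic cell markers summed to 309 to 375 in Pdcd1f/f and 397 to 452 in Pdcd1f/fLysMcre, higher in the latter without overlap, and all 4 tested had a positive log2 fold change, with an unadjusted p under 0.05 for Zbtb46 (0.69) and Flt3 (0.67), which were not past the threshold by edgeR or DESeq2. Fibroblast and tumor markers summed to 3589 to 4121 and 3590 to 3838. In these lists Csf3r, Col1a2 and Fap were lower in Pdcd1f/fLysMcre by edgeR and no gene was past the threshold as higher, and DESeq2 also called the B cell gene Cd79b and the macrophage marker Fcgr1 as lower. The part of these differences in the changes below was not tested. In sorted bulk samples, fewer cells of a type and less RNA per cell cannot be told apart.

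Per kilobase of exon, counted over all annotated exons of a gene, Rbbp7 was the most abundant of the 10 genes in Pdcd1f/f TAMs with 3265 ± 107 normalized counts (SD, n = 3). It was followed by Kdm6b with 2355 ± 257, Suz12 with 1345 ± 169, Jarid2 with 1009 ± 26.4 and Eed with 828 ± 80.2. Lower levels were found for Ezh2 with 581 ± 46.0, Aebp2 with 498 ± 32.0, Mtf2 with 243 ± 28.1, Ezh1 with 210 ± 7.73 and Phf19 with 178 ± 8.87. In this order every Pdcd1f/f library of a gene lay above every library of the next. Comparisons between genes are approximate, since the isoforms expressed and GC content were not allowed for, and the SD does not cover this. The order was the same in Pdcd1f/fLysMcre TAMs, where only the neighbours Ezh2 (668 ± 49.6) and Aebp2 (632 ± 41.8) overlapped. Rbbp4, the close relative of Rbbp7, stood at 1487 ± 105 in Pdcd1f/f and 1500 ± 83.9 in Pdcd1f/fLysMcre TAMs. TAMs of both genotypes thus held transcripts of every PRC2 core subunit and of accessory subunits of both forms.

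**Figure D2:**
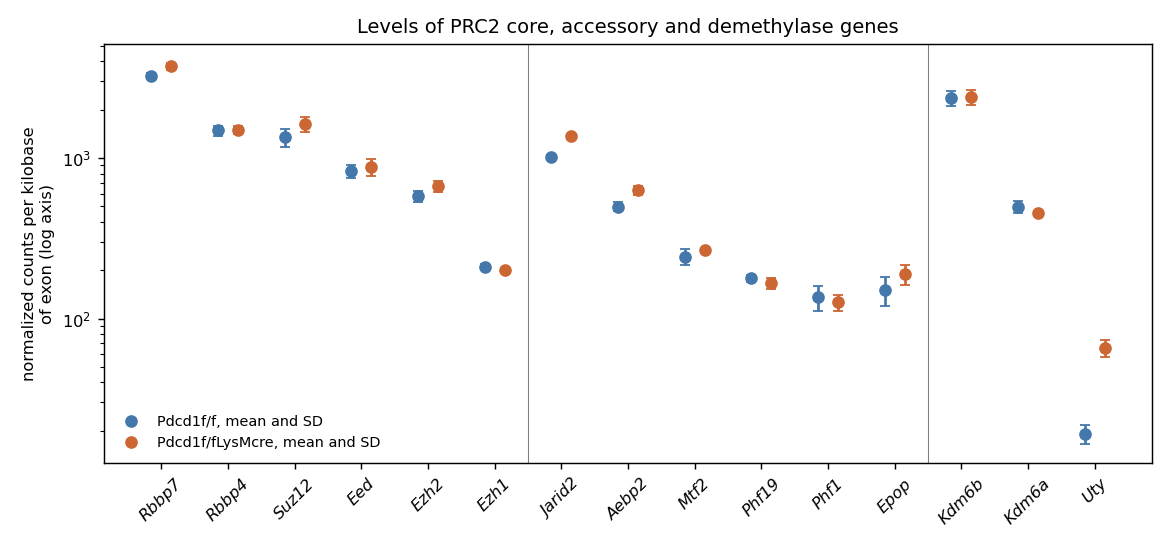
Normalized counts per kilobase of exon (vertical log axis) of PRC2 core genes, accessory genes and H3K27 demethylase genes, separated by the vertical lines, as mean and SD of 3 libraries per genotype. Rbbp7 and Kdm6b are above 2000 in both genotypes, whereas Ezh1 and Phf19 are near 200.

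Jarid2 lies on the plus strand of chromosome 13 at chr13:44729474-44921643 in GRCm38. In replicate order it had 10038, 9530 and 9840 normalized counts without Cre (Pdcd1f/f) and 13744, 13501 and 12988 with it (Pdcd1f/fLysMcre). Every Pdcd1f/fLysMcre library was above every Pdcd1f/f library, and the gap between the genotypes exceeded the range within either. Means were 9803 ± 256 and 13411 ± 385 (SD, n = 3 each). The log2 fold change was 0.45 with a standard error of 0.06 and a 95% interval of 0.33 to 0.58, and the Benjamini-Hochberg adjusted p from edgeR was 0.00166. Ordered by p-value, Jarid2 was number 96 of the 14469 genes, while 726 genes had a larger log2 fold change. Its coefficient of variation was 2.61% in Pdcd1f/f and 2.87% in Pdcd1f/fLysMcre libraries. In all 17 alternatives Jarid2 remained past the threshold as higher, with log2 fold changes of 0.44 to 0.47.

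Aebp2, encoding a zinc-finger protein that stabilizes PRC2 and binds nucleosomes, lies on the plus strand at chr6:140622663-140678472. Its normalized counts were 5271, 4693 and 4763 in Pdcd1f/f and 6020, 6705 and 5966 in Pdcd1f/fLysMcre libraries. The groups did not overlap, with the highest value in Pdcd1f/fLysMcre replicate 2. From 4909 ± 316 to 6230 ± 412 (SD, n = 3 each), the log2 fold change was 0.35 (standard error 0.07, 95% interval 0.19 to 0.51, adjusted p = 0.0219 from edgeR). Aebp2 was number 450 of the tested genes by p-value. It remained past the threshold in 13 of 17 alternatives. The other 4 were fits with 1 library left out, in which the log2 fold change was 0.32 without Pdcd1f/f replicate 2 (adjusted p = 0.136 from edgeR), 0.32 without Pdcd1f/f replicate 3 (0.0890), 0.37 without Pdcd1f/fLysMcre replicate 1 (0.0848) and 0.29 without Pdcd1f/fLysMcre replicate 2 (0.0743).

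Since Jarid2 and Aebp2 both rose, the RefSeq sequences around their annotated starts are shown, from 250 bases before to 50 bases after the start in GRCm38.p6. RefSeq gives 2 such windows for Jarid2 and 3 for Aebp2, and the window with the most CpG dinucleotides of each is printed, chr13:44730524-44730823 for Jarid2 and chr6:140624659-140624958 for Aebp2, both on the plus strand. Capitals mark the letters GGGCGG (GC box) and CCAAT, searched together with GAGGAAG (the core of PU.1 sites), TGANTCA (AP-1) and TTTCCCGC (E2F) on both strands, with no overlap among the matches printed.
Jarid2: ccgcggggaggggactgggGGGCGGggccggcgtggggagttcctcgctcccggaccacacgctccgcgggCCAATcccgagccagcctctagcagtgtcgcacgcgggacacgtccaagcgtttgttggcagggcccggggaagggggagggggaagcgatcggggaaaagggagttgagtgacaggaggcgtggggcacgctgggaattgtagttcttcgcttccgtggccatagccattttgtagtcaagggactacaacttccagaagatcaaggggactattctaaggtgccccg
Aebp2: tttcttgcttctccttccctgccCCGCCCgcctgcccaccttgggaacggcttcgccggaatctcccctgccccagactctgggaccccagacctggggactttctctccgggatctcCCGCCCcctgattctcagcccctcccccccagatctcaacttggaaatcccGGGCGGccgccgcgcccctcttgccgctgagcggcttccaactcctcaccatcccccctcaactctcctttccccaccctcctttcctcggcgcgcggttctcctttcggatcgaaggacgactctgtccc
The Jarid2 window held 24 CpG with 1 GC box and 1 CCAAT, and the Aebp2 window held 21 CpG with 3 GC boxes, whereas the median over 32841 promoter windows was 7 CpG. Since the windows printed were picked for their CpG, this contrast is a description, and the other Jarid2 window held 23 CpG and the other 2 Aebp2 windows 4 each. GGGCGG occurs in 35.7% of those windows, CCAAT in 37.4%, GAGGAAG in 13.6%, TGANTCA in 7.81% and TTTCCCGC in 1.07%. Of the 10 genes, 9 had at least 1 window. The E2F letters were found once each in the windows of Suz12 and Phf19, GAGGAAG once in another Aebp2 window, and TGANTCA in none of these 9 genes. These matches are descriptions of the letters in these windows.

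Among core subunits, Suz12, Ezh2 and Rbbp7 had higher means in Pdcd1f/fLysMcre TAMs without passing the threshold. Suz12, the scaffold (chr11:79993106-80034123, plus strand), had 7600, 6317 and 6033 normalized counts in Pdcd1f/f and 7953, 9010 and 7205 in Pdcd1f/fLysMcre libraries. Pdcd1f/f replicate 1 lay above the lowest Pdcd1f/fLysMcre library, so the groups overlapped. The log2 fold change of Suz12 was 0.28 (standard error 0.10, 95% interval 0.05 to 0.50, adjusted p = 0.132 from edgeR). Ezh2, the main catalytic subunit of dividing cells (chr6:47530139-47595341, minus strand), had 4237, 3708 and 3701 in Pdcd1f/f and 4289, 4843 and 4250 in Pdcd1f/fLysMcre libraries. The lowest Pdcd1f/fLysMcre value, 4250, was close to the highest Pdcd1f/f value, 4237, and the log2 fold change was 0.20 (standard error 0.08, 95% interval 0.03 to 0.38, adjusted p = 0.150 from edgeR). Rbbp7 (chrX:162760402-162779092, plus strand) had 9719, 9633 and 9141 in Pdcd1f/f and 10379, 11404 and 10769 in Pdcd1f/fLysMcre libraries, again without overlap. Its log2 fold change was 0.19 (standard error 0.06, 95% interval 0.06 to 0.33, adjusted p = 0.0945 from edgeR). Rbbp7 is X-linked, and of the sex-linked transcripts above Xist was lower and the Y-linked genes were higher in Pdcd1f/fLysMcre libraries. The part of this mix of sexes in the change of Rbbp7 was not tested. Before adjustment, 5 of the 10 genes (Jarid2, Aebp2, Suz12, Ezh2 and Rbbp7) had a p-value under 0.05, as did 24.2% of all tested genes.

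Eed and Ezh1 complete the core. Eed (chr7:89954654-89980983, minus strand) had 3501, 3110 and 2895 normalized counts in Pdcd1f/f and 3101, 3816 and 3175 in Pdcd1f/fLysMcre libraries, with overlapping groups and a log2 fold change of 0.09 (95% interval -0.13 to 0.30, adjusted p = 0.612 from edgeR). Ezh1, the catalytic subunit typical of resting cells (chr11:101191115-101226463, minus strand), had 1524, 1533 and 1628 in Pdcd1f/f and 1491, 1542 and 1443 in Pdcd1f/fLysMcre libraries. Its groups overlapped, and its log2 fold change was -0.06 (95% interval -0.22 to 0.09, adjusted p = 0.613 from edgeR). The log2 ratio of Ezh1 to Ezh2 was -1.48, -1.27 and -1.19 in Pdcd1f/f and -1.52, -1.65 and -1.56 in Pdcd1f/fLysMcre libraries, lower in all 3 libraries of the latter. The difference of -0.27 gave p = 0.1 in a two-sided exact permutation test, the smallest that 3 libraries against 3 allow. With GC and length offsets the difference was -0.16. Per kilobase, the level of Ezh2 was 2.78 ± 0.29 times that of Ezh1 in Pdcd1f/f and 3.33 ± 0.15 times in Pdcd1f/fLysMcre TAMs (SD, n = 3 each).

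Because Ezh2 is known to follow cell division, 16 proliferation markers were examined. None was past the threshold by edgeR, DESeq2 or limma-trend, and the median log2 fold change of the 16 was 0.01. An unadjusted p under 0.05 was found for 2 of the 16, Bub1 (0.30) and Ccna2 (0.20), named after their values were seen, beside 24.2% of all tested genes. The summed level of the 16 markers was 130726 to 146243 in Pdcd1f/f and 137766 to 146766 in Pdcd1f/fLysMcre libraries, with overlapping groups. Top2a, the marker with the highest mean normalized count (not divided by length), had 24846 ± 3210 and 28250 ± 1678 normalized counts (SD, n = 3 each), with a log2 fold change of 0.19 (adjusted p = 0.231 from edgeR). Without Pdcd1f/f replicate 1, a fit in which Ezh2 passed the threshold too, Top2a was past it at 0.29 (adjusted p = 0.0099 from edgeR). With GC and length offsets Ezh2 was past it and Top2a was not, at 0.12 (adjusted p = 0.0857 from edgeR). Without both Pdcd1f/f replicate 1 and Pdcd1f/fLysMcre replicate 2, chosen after the data were seen, both genes were past it. Ezh2 was then at 0.20 and Top2a at 0.26 (adjusted p = 0.0085 and 0.0011 from edgeR). Across the 17 alternatives Ezh2 was past the threshold in 5 and Top2a in 3.

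Neither Polycomb-like gene of PRC2.1 passed the threshold. Mtf2 (chr5:108065674-108109004, plus strand) had 1569, 1290 and 1293 normalized counts in Pdcd1f/f and 1552, 1487 and 1554 in Pdcd1f/fLysMcre libraries, so Pdcd1f/f replicate 1 was the highest of all 6. Its log2 fold change was 0.15 (95% interval -0.05 to 0.34, adjusted p = 0.337 from edgeR). Mtf2 shares its locus with Tmed5 on the other strand, which had 5749 to 10196 raw counts, and reads of the pair cannot be told apart if strand was not used in counting. Phf19 (chr2:34893757-34914026, minus strand) had 877, 863 and 946 in Pdcd1f/f and 901, 774 and 836 in Pdcd1f/fLysMcre libraries, with overlapping groups and a log2 fold change of -0.09 (95% interval -0.29 to 0.10, adjusted p = 0.536 from edgeR). Eed, Rbbp7 and Kdm6b also overlap genes on the other strand, with at most 314, 646 and 14 raw counts in any library. Ezh2 and Suz12 overlap the noncoding genes Gm26625 and Gm26563 on the other strand, for which no counts were available. The summed level per kilobase of Jarid2 and Aebp2 was 2.81, 2.72 and 2.61 times that of Mtf2, Phf19 and Phf1 in Pdcd1f/f libraries and 3.53, 3.92 and 3.35 times in Pdcd1f/fLysMcre libraries. This ratio was higher in every Pdcd1f/fLysMcre library and is given as a description, since the change of Jarid2 was known when it was formed.

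Kdm6b (chr11:69398508-69413675, minus strand) had 14570, 16421 and 18137 normalized counts in Pdcd1f/f and 17004, 14657 and 18099 in Pdcd1f/fLysMcre libraries. The groups covered nearly the same range, and the log2 fold change was 0.02 (standard error 0.10, 95% interval -0.19 to 0.23, adjusted p = 0.916 from edgeR). With GC and length offsets Kdm6b was past the threshold as higher at 0.20 (adjusted p = 0.00178 from edgeR). The libraries with the lowest Kdm6b, Pdcd1f/f replicate 1 and Pdcd1f/fLysMcre replicate 2, were those that followed GC content downward, and Kdm6b had the highest GC content of the 10 genes at 59.6%. Kdm6a, the X-linked demethylase of the same family, had 4146 ± 361 and 3784 ± 125 normalized counts (SD, n = 3 each), with a log2 fold change of -0.13 (adjusted p = 0.315 from edgeR). With GC and length offsets Kdm6a was past the threshold as lower at -0.21 (adjusted p = 0.0030 from edgeR). The part of the mix of sexes in the change of this X-linked gene was not tested. Per kilobase Kdm6b stood at 4.82 ± 0.95 times Kdm6a in Pdcd1f/f and 5.30 ± 0.71 times in Pdcd1f/fLysMcre libraries, with overlap. Uty, the Y-linked relative of Kdm6a, rose from 187 ± 25.3 to 645 ± 77.3 (log2 fold change 1.79, adjusted p = 4.2e-05 from edgeR) together with the other Y-linked transcripts.

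**Figure D3:**
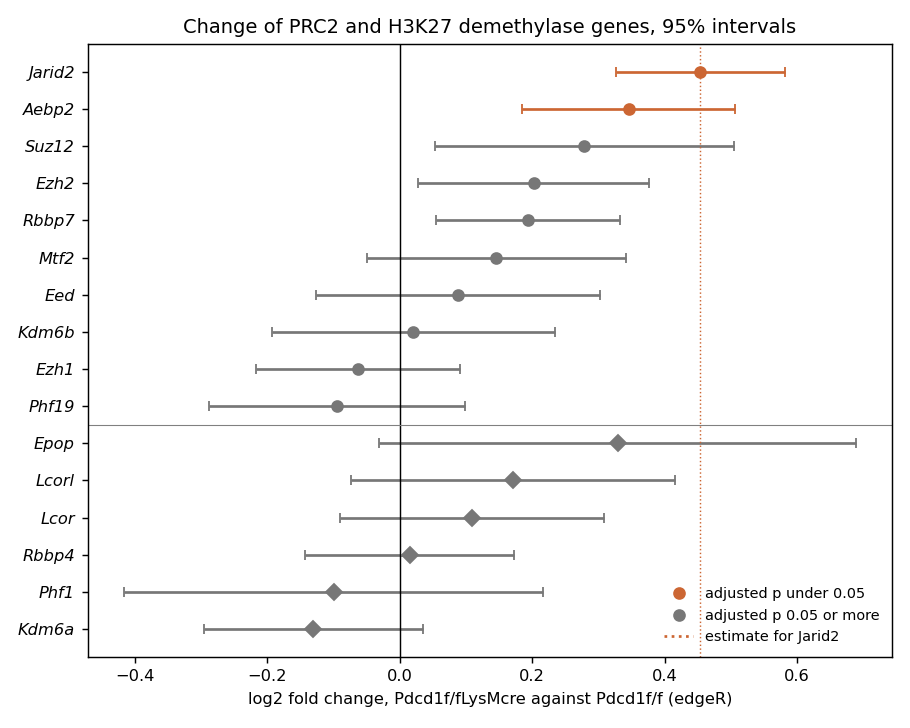
Log2 fold change (horizontal axis, Pdcd1f/fLysMcre against Pdcd1f/f) with its 95% interval from edgeR for the 10 genes (circles) and for other PRC2 and demethylase genes (diamonds), ordered by size within each set, with a dotted line at the Jarid2 estimate of 0.45. Jarid2 and Aebp2, in orange, are past the threshold, and the intervals of Suz12 and Aebp2 reach the dotted line among the other 9 genes.

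To test whether the change of Jarid2 itself differed from that of each of the other 9 genes, the log2 ratio of Jarid2 to that gene was compared between genotypes, a measure in which size factors cancel. The ratio was higher in every Pdcd1f/fLysMcre library than in any Pdcd1f/f library for 7 of the 9 genes. Its difference was 0.55 for Phf19, 0.52 for Ezh1, 0.43 for Kdm6b, 0.37 for Eed, 0.30 for Mtf2, 0.26 for Rbbp7 and 0.25 for Ezh2. Each gave p = 0.1 in a two-sided exact permutation test, the smallest possible, and 0.129 after adjustment over the 9 pairs, so no pair could pass the threshold. The ratios to Suz12 (difference 0.17) and Aebp2 (difference 0.11) overlapped between genotypes, each with an exact permutation p of 0.3. As background, the ratio of Jarid2 to 73.2% of the other tested genes did not overlap either, and in 72.5% of all these ratios Jarid2 was relatively higher without overlap. In the edgeR fit, the 95% intervals of Suz12 and Aebp2 held the Jarid2 estimate and those of the other 7 genes did not. This leaves out the error of the Jarid2 estimate and is not a test of a difference. The interval of Jarid2 itself, 0.33 to 0.58, was also reached by those of Ezh2, Mtf2 and Rbbp7. With GC and length offsets all 9 ratios, those to Suz12 and Aebp2 included, did not overlap, and the same held for 77.8% of the ratios to all other tested genes under the same offsets, with Jarid2 relatively higher in 76.9% of all these ratios. Most genes thus gave such a ratio in either analysis, and neither count is read as particular to these genes.

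**Figure D4:**
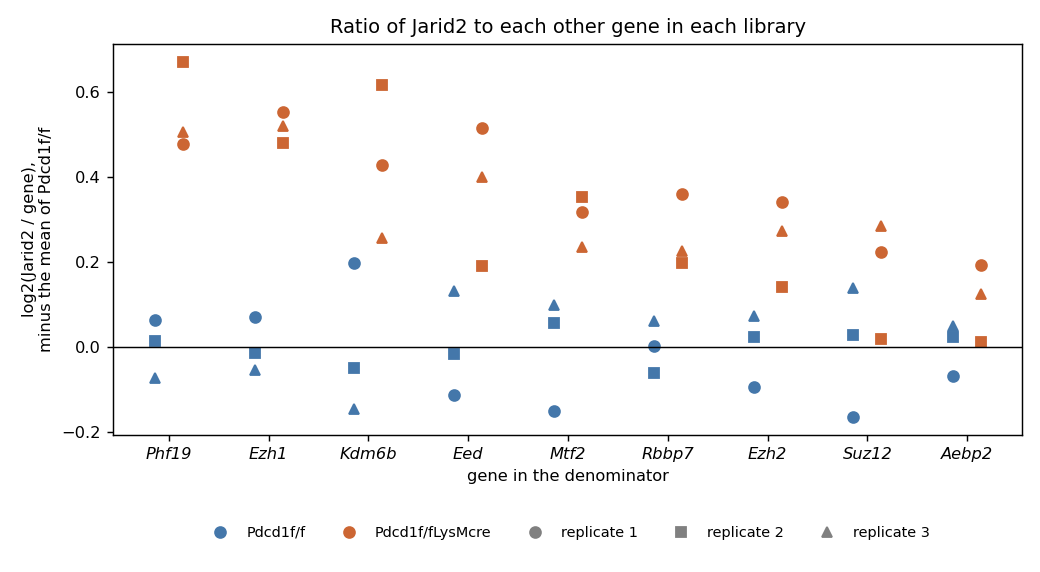
Log2 ratio of Jarid2 to each of the other 9 genes in each library, minus the mean of the Pdcd1f/f libraries (vertical axis), with blue for Pdcd1f/f, orange for Pdcd1f/fLysMcre and the marker shape for the replicate number. The genotypes are separated for the 7 genes from Phf19 to Ezh2 and overlap for Suz12 and Aebp2.

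How many of the 10 genes joined Jarid2 past the threshold changed with joint offsets for GC and length, and with single libraries left out. No fit changed GC alone. Jarid2 was the only one of the 10 genes past the threshold without Pdcd1f/f replicate 2, without Pdcd1f/f replicate 3, without Pdcd1f/fLysMcre replicate 1 and without Pdcd1f/fLysMcre replicate 2. In these fits calls over all tested genes fell as well, from 5.43% to 1.51%, 2.38%, 1.51% and 2.5%, while the log2 fold change of Aebp2 was 0.29 to 0.37. When each library was given offsets for GC and length of the genes, 6 of the 10 genes were past the threshold as higher, beside 18.9% of all tested genes (11.3% as higher). By edgeR with these offsets, the log2 fold change was 0.46 for Jarid2 (adjusted p = 4.7e-07), 0.24 for Aebp2 (0.00104), 0.20 for Kdm6b (0.00178), 0.19 for Suz12 (0.0101), 0.16 for Rbbp7 (0.0169) and 0.14 for Ezh2 (0.0416). Kdm6b thus moved from 0.02 to 0.20 with the offsets, while the estimates of the AT-rich genes Mtf2 and Aebp2 fell from 0.15 to 0.03 and from 0.35 to 0.24. Without Pdcd1f/f replicate 1, 6 of the 10 genes were also past the threshold as higher, Jarid2, Aebp2, Suz12, Ezh2, Rbbp7 and Mtf2, beside 21.6% of all tested genes (10% as higher). Without both Pdcd1f/f replicate 1 and Pdcd1f/fLysMcre replicate 2, an alternative chosen after the data were seen, the same 6 genes were past it, beside 26.2% of all genes (12.5% as higher), and Kdm6b stood at 0.02. Across the 17 alternatives, Suz12 was past the threshold in 6, Ezh2 and Rbbp7 in 5 each, Kdm6b in 3, Mtf2 in 2, and Eed, Ezh1 and Phf19 in none.

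**Figure D5:**
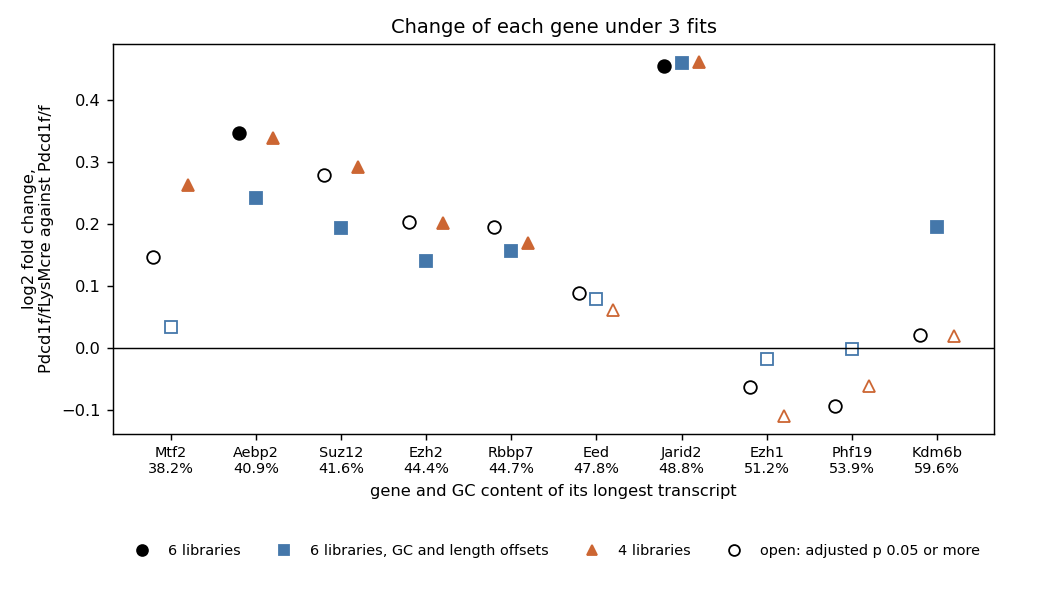
Log2 fold change (vertical axis) of the 10 genes ordered by the GC content of their longest transcript, with all 6 libraries (circles), with GC and length offsets (squares) and with 4 libraries (triangles), filled where the adjusted p is under 0.05. Jarid2 stays between 0.45 and 0.46 in the 3 fits, and Kdm6b is past the threshold only with the offsets.

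Other genes of the pathway were read off the same edgeR fit. None of the 5 tested genes among 6 other PRC2 subunits was past the threshold by edgeR, DESeq2 or limma-trend, and none had an unadjusted p under 0.05. Epop, a cofactor of PRC2.1, had 348 ± 72.4 and 436 ± 61.6 normalized counts (log2 fold change 0.33, 95% interval -0.03 to 0.69, adjusted p = 0.241). With GC and length offsets Epop was past the threshold at 0.58 (adjusted p = 0.00026 from edgeR), above the 0.46 of Jarid2 in that fit, and it stood at 0.16 without Pdcd1f/f replicate 1. Log2 fold changes were 0.17 for Lcorl, 0.11 for Lcor, 0.02 for Rbbp4 and -0.10 for Phf1. Ezhip, an inhibitor of PRC2, had 0 counts in every library. Of 23 genes of Polycomb repressive complex 1 (PRC1), which ubiquitylates histone H2A, 1 was past the threshold by edgeR and by limma-trend, and 2 (Bmi1 and Rybp) by DESeq2. Of all tested genes, 5.43% were past it by edgeR and 10.6% by DESeq2. An unadjusted p under 0.05 was found for 4 of the 23, Bmi1, Pcgf6 (log2 fold change 0.30), Yaf2 (0.29) and Rybp (0.24), the last 3 named after their values were seen, beside 24.2% of all tested genes. The same 4 were the PRC1 genes whose libraries did not overlap, all higher in Pdcd1f/fLysMcre, beside 14.1% of all tested genes in that direction and 27.2% in either. The gene past the threshold by edgeR was Bmi1, a core PRC1 subunit, with 2203, 2024 and 1955 normalized counts in Pdcd1f/f and 2522, 2845 and 2397 in Pdcd1f/fLysMcre libraries. These groups did not overlap (log2 fold change 0.33 with a standard error of 0.08, and an edgeR adjusted p of 0.0455). Bmi1 was past the threshold in 11 of 17 alternatives. The log2 fold change of Bmi1 was 0.32 without Pdcd1f/f replicate 2 (adjusted p = 0.191 from edgeR) and 0.29 without Pdcd1f/f replicate 3 (0.164). It was 0.35, 0.26 and 0.38 without Pdcd1f/fLysMcre replicates 1, 2 and 3 (0.141, 0.139 and 0.0524). Pcgf5, the PRC1 gene with the highest mean normalized count over both genotypes (not divided by length), had a log2 fold change of 0.14 (adjusted p = 0.326 from edgeR). In Pdcd1f/f libraries alone, the mean of Phc2 was higher, at 3091 against 2759 for Pcgf5. None of 10 tested genes of the PR-DUB complex, which removes the ubiquitin, was past the threshold by any of the 3 tools, and 1 (Kdm1b, named after its values were seen) had an unadjusted p under 0.05. Hcfc1, with the highest mean normalized count of these, stood at a log2 fold change of -0.06. Of 15 genes of the COMPASS methyltransferases and H3K27 acetyltransferases none was past the threshold by any of these tools or had an unadjusted p under 0.05, and Ep300, with their highest mean normalized count before division by length, stood at -0.07.

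Of the JARID1 demethylases, relatives of JARID2 that act on H3K4, the Y-linked Kdm5d alone was past the threshold with all 6 libraries. Log2 fold changes were 0.09 for Kdm5a, -0.03 for Kdm5b and -0.19 for the X-linked Kdm5c, with adjusted p-values of 0.571, 0.848 and 0.154 from edgeR. Without Pdcd1f/f replicate 1, Kdm5c was past the threshold as lower at -0.26 (adjusted p = 0.0233 from edgeR). For Kdm5c, too, the part of the mix of sexes was not tested. Kdm5d rose from 221 ± 23.5 to 627 ± 33.6 normalized counts (adjusted p = 4.2e-05 from edgeR), as the other Y-linked transcripts did. Over all 61 other Polycomb and H3K27 genes, 59 were tested and 3 were past the threshold, all higher (Uty, Kdm5d and Bmi1). Without the Y-linked pair this was 1 of 57, beside 5.43% of all tested genes, and their median log2 fold change was -0.03.

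Hox genes, classical PRC2 targets, were mostly silent in both genotypes. Of 39 Hox genes, 30 were below the expression filter with at most 15 counts in any library, and 9 of those 30 had 0 counts in every library. None of the 9 tested was past the threshold by edgeR, DESeq2 or limma-trend, and 6 of the 9 had a positive log2 fold change. Hoxc10, named after its values were seen, had 13.8 ± 2.63 and 33.1 ± 13.5 normalized counts (SD, n = 3 each) without overlap (log2 fold change 1.25, adjusted p = 0.0797 from edgeR). Hoxc10 was the 1 gene of the 9 tested without overlap, beside 27.2% of all tested genes. The summed level of the 39 genes also did not overlap, at 267 to 284 in Pdcd1f/f and 322 to 331 in Pdcd1f/fLysMcre libraries. The largest rises in this sum were those of Hoxc10 and Hoxd8, both with low counts. Hoxd8, also named after its values were seen, had 24.6 ± 11.7 and 40.9 ± 6.54, with overlap. The sum is therefore not read as a change of the Hox genes together. Hoxb4, with the highest mean normalized count, had 117, 117 and 105 normalized counts in Pdcd1f/f and 97.1, 106 and 112 in Pdcd1f/fLysMcre libraries, with overlapping groups and a log2 fold change of -0.11 (adjusted p = 0.702 from edgeR).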

How the data were processed

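RNA-seq was analysed in 6 TAM libraries, 3 Pdcd1f/f and 3 Pdcd1f/fLysMcre, grouped by the labels. The authors prepared stranded polyA libraries, and per the labels and the submitters' processing notes checked reads with FastQC 0.11.5, trimmed them with Cutadapt 2.5, aligned them to GRCm38 with STAR 2.7.3a and counted them with featureCounts (Subread 1.6.2). The strand setting of the counting is not given in the sources used here. They deposited raw counts of 55421 genes and a normalized signal of 16552 genes, equal to counts divided by a DESeq2 1.24.0 size factor (0.895 to 1.08). The normalized counts in the text are these values.

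Raw counts were tested with edgeR 4.0.16 (R 4.3.3): filterByExpr (minimum count 10, minimum total 15), TMM, robust glmQLFit, two-sided glmQLFTest and Benjamini-Hochberg adjustment over 14469 genes, with a threshold of 0.05. Standard errors were the absolute log2 fold change over the square root of F. Ratios were tested by exact permutation in R 4.3.3. Exon lengths, GC content and positions came from GENCODE M21 (GRCm38), promoter windows from RefSeq (GRCm38.p6). Alternatives were other scaling, filters, DESeq2 1.42.0, limma-trend (3.58.1, log2 of normalized count + 1), a replicate block, GC and length offsets (loess span 0.5) and leaving out libraries. On simulated counts edgeR recovered 66 of 100 genes changed by 0.5 and 97 of 100 changed by 1 (log2), with 10 false calls among 14268 genes.

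The 10 genes and the lists were chosen with earlier results of these data known. Named genes were all 10, all other PRC2, demethylase and JARID1 genes, and of each other pathway list those past the threshold and the most abundant. A list of alternative activation genes and 1 macrophage marker are not reported here. Chi-square comparisons within a genotype gave 5.44 to 43.1 per gene, and no library was treated as a duplicate. Depth allowed 3 counts to stand for 0.0583 to 0.0717 CPM, which covers counting error only.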

Additional observations from a re-analysis of the deposited data

How the results depend on the processing

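Jarid2 kept its direction and its side of the threshold in all 17 alternatives. Other results moved. Genes past the threshold numbered 786 (350 higher) in the edgeR analysis, and 1951 (884 higher) with every gene of at least 1 count, 1528 (714) with DESeq2, 2736 (1627) with GC and length offsets, 3757 (1801) with 4 libraries and 3550 (1939) with 4 libraries and the offsets. With 1 library left out they ranged from 222 to 3181, and those higher from 82 to 1478. Members of the 10 past the threshold numbered 6, all higher, with the offsets, with 4 libraries and with both, and 1 to 6 (1 to 6 higher) with 1 library left out. The other Polycomb and H3K27 genes past it rose from 3 to 9 (8 higher) with the offsets, 15 (9 higher) with 4 libraries and 13 (10 higher) with both, and ranged from 2 to 13 (2 to 7 higher) with 1 left out. The 4 libraries lack Pdcd1f/f replicate 1 and Pdcd1f/fLysMcre replicate 2 and were chosen after the data were seen. Bmi1 was not past the threshold with library size alone (0.31) or in 5 of 6 fits with 1 library left out. The cause of these shifts was not tested.

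The replicate number as a block is an arithmetic option, since nothing links the numbers across genotypes and deviations of same-numbered libraries correlated with r of -0.01, -0.10 and 0.22. With the replicate block 1027 genes were past the threshold and 2 of the 10, and with the block and the offsets 2848 (1675 higher), 6 of the 10 (6 higher) and 11 other Polycomb and H3K27 genes (9 higher). Not every library correlated best with its own number.

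The count of 7 separated Jarid2 ratios was 7 with raw counts and with the block, 9 with the offsets and 7 to 9 with 1 library left out. The Ezh1 to Ezh2 difference was -0.16 with the offsets and -0.35 to -0.20 with 1 left out.

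Reversals concerned genes that were not past the threshold. With the offsets these were Rbbp4 (-0.0365), Phf1 (0.0690), Hcfc1 (0.0321) and Hoxb4 (0.000812), and with block and offsets Rbbp4 (-0.0369), Phf1 (0.0708), Hcfc1 (0.0317) and Hoxb4 (0.00334). With 4 libraries they were Kdm5b (0.0580) and Ep300 (0.00379), and with 4 libraries and the offsets Phf19 (0.0466), Rbbp4 (-0.0523), Phf1 (0.0219), Lcorl (-0.00680), Kdm5b (0.00632), Hcfc1 (0.0809), Ep300 (0.0217) and Hoxb4 (0.0416). With library size alone Rbbp4 stood at -0.00319. With 1 library left out, ranges that crossed 0 were -0.0120 to 0.156 for Eed, -0.0654 to 0.103 for Kdm6b, -0.0306 to 0.0630 for Rbbp4, -0.244 to 0.0248 for Phf1, -0.0815 to 0.0118 for Kdm5b and -0.120 to 0.00103 for Hcfc1.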
